A study of Mus musculus with 6 samples.

Results

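The differences described here are those that set early subjective night apart from early subjective day and ran in the same direction in the livers of 3 mouse genotypes. Total RNA of male mice, 8 to 10 weeks of age, was hybridised to 6 one-colour arrays, 1 for each genotype at circadian time 02 (CT02, 2 h after the start of the subjective day) and 1 at circadian time 14 (CT14, 14 h). The wild-type mice were of a C57BL/6 background, the Clock mutant mice carried an allele that the labels do not specify, and the Cry-deficient mice were described as a knockout of both Cry1 and Cry2 for the CT02 array. No strain was stated for the mutants, and the sources used here do not say whether an array held RNA of 1 mouse or of a pool. Each CT14 array was set against the CT02 array of its own genotype, which gave 3 differences per gene. Values listed together follow the order wild type, Clock mutant, Cry-deficient. Of 10833 probe sets with a single gene symbol, 5598 had a mean signal above the floor of 606 scaled units, and of 8251 genes 4844 were kept by their brightest probe set. The 3 differences had the same sign for 1280 of those genes, 630 of them higher at CT14 (13% of the genes kept) and 650 lower (13.4%).

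Onecut1, Socs2 and Cish, which stood higher at CT14 in each genotype, and Bcl6, which stood lower, belong to one regulatory system. Growth hormone, which male rodents release in pulses, binds its receptor on hepatocytes and activates the kinase JAK2, which phosphorylates the transcription factor STAT5. STAT5 enters the nucleus, binds DNA at sites of the form TTCNNNGAA and induces Socs2 and Cish, whose products feed back on the receptor. BCL6 is a transcriptional repressor that can bind such sites too and whose gene is lowered by growth hormone in liver, and ONECUT1 (also called HNF6) is a hepatocyte transcription factor whose gene is induced by the hormone. The circadian clock runs in parallel. CLOCK and BMAL1, the product of Arntl, activate Per, Cry and other genes through E-boxes (CACGTG), and PER and CRY proteins repress that pair. These 4 genes were singled out with the results of the arrays known, so their values are given as a description.

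Promoter sequences from RefSeq (assembly GRCm38.p6, 250 bases before to 50 bases after each annotated start) were found for 24 of the 31 genes treated in detail below. Socs2, Cd4, Snrpb, Dym, Hmbox1, Mup5 and Mroh1 had no entry. Both strands were searched for TTCNNNGAA and for CACGTG, which read the same on either strand, and no match of one overlapped a match of the other in the stretches shown. The stretches of the 3 marker genes that hold a match are shown because these motifs are the ones that STAT5, BCL6 and the clock activators are known to bind, with the matches in capitals and every stretch written 5′ to 3′ along the gene.

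Cish, chr9:107296654-107296683, plus strand: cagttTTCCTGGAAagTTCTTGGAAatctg
Onecut1, chr9:74861671-74861714, plus strand: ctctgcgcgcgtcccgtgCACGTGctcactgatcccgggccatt
Bcl6, upstream start, chr16:23988887-23988990, minus strand: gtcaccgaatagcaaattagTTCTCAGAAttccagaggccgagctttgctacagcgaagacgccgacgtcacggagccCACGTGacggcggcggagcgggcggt
Bcl6, downstream start, chr16:23981343-23981471, minus strand: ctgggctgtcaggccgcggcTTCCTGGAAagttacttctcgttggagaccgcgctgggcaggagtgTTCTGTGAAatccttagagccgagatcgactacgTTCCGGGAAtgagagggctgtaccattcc

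Cish carried 2 matches to the STAT5 form, beginning at bases 1 and 12 of the annotated transcript. The downstream start of Bcl6 had 3 matches, beginning 168, 122 and 88 bases before it, and the upstream start had 1 match 118 bases before it and an E-box 60 bases before it. Onecut1 had an E-box 232 bases before its start and no TTCNNNGAA in the window. Of all 32851 promoter windows in the table, 8.30% held TTCNNNGAA and 7.15% held CACGTG, and 9.55% of 27025 genes held TTCNNNGAA in at least 1 window. Among the 24 genes the first motif was found for Cish, Bcl6, Akt2 and Ttc1, of which 2 stood higher and 2 lower at CT14, and the second for Onecut1, Bcl6 and Arl2. A match is a description of the letters and was not tied to binding in these livers.

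The arrays differed in ways that ran with time as well as with genotype. Dividing each array by its median ratio to the 6-array average took log2 offsets of 0.12 for the wild-type CT02 array and 0.15 for its CT14 partner, of -0.43 and 0.07 for the Clock mutant pair, and of 0.00 and 0.20 for the Cry-deficient pair, so the deposited values were brighter at CT14 in each genotype. The 3′ control probe of Pcx divided by its 5′ control probe, a ratio that is larger where RNA is shorter, gave 19.7, 17.7 and 25.3 at CT02 and 3.96, 6.57 and 7.14 at CT14, with the 5′ probe near the floor at CT02 (788, 831 and 644 scaled units). The corresponding Actb ratio was above 1 on the Clock mutant arrays (2.68 and 1.15) and on the Cry-deficient CT02 array (1.70) but below 1 on the other 3 (0.84 and 0.93 for wild type, 0.86 for Cry-deficient CT14). For Gapdh it hardly differed between the times in wild type (0.70 and 0.72) or the Clock mutant (0.56 and 0.59) and was 2.37 and 0.70 in the Cry-deficient pair. For Tfrc it was larger at CT14, at 4.32, 1.76 and 204, against 1.24 in wild type and 1.3 in the Cry-deficient pair at CT02. The Tfrc 5′ probe was below the floor on all CT14 arrays and on both mutant CT02 arrays (558 and 582 scaled units). Its ratio therefore says little. Of the other ratios, that of Pcx was larger at CT02 in each genotype, that of Actb in both mutants and that of Gapdh in the Cry-deficient pair. Actb and Gapdh in wild type and Gapdh in the Clock mutant differed little with time. The part of RNA length in the time differences was not tested. Of the kept probe sets, 5.70%, 8.88% and 7.82% were at the floor at CT02 and 5.54%, 6.36% and 5.11% at CT14. The brightest 10% of the probe sets had a median log2 difference of -0.13, with -0.00 in wild type, -0.28 in the Clock mutant and -0.15 in the Cry-deficient pair. Their part in the shared differences was not tested beyond the alternative scalings. The hepatocyte markers Alb, Ttr, Apob, Tat, Cps1 and Cyp2e1 were above the floor on all arrays, whereas Apoa1 and Ass1 were below it on some. The summed level of these 8 markers was 91231 to 107537 scaled units at CT02 and 73088 to 86197 at CT14.

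Among genes taken by their brightest probe set, Onecut1 had the largest shared difference, ranked by the smallest of the 3 values. It read 637, 1003 and 1062 scaled units at CT02 and 1537, 2628 and 5572 at CT14. All 3 CT14 values lay above all 3 CT02 values, by 2.41-fold, 2.62-fold and 5.25-fold within the genotypes. The mean log2 difference was 1.68 ± 0.62 (SD over 3 genotypes).

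Socs2, the feedback inhibitor of the growth hormone receptor, was second by the same measure. Its signal was 764, 1325 and 1050 at CT02 and 1785, 8473 and 2532 at CT14, again without overlap between the times. The fold was 2.34 in wild type and 2.41 in the Cry-deficient pair, and 6.40 in the Clock mutant, whose CT14 array was the highest of the 6. The mean log2 difference was 1.72 ± 0.83 (SD over 3 genotypes).

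Cish, which encodes the related inhibitor CIS, read 805, 1874 and 1209 at CT02 and 1165, 4241 and 3192 at CT14. The wild-type CT14 value lay below 2 of the CT02 values, so the groups overlapped although each genotype was higher at night. The folds were 1.45, 2.26 and 2.64, and the mean log2 difference was 1.04 ± 0.45 (SD over 3 genotypes). At either time Cish was brighter in both mutants than in wild type.

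Bcl6 went the other way. Its signal was 5521, 3537 and 5737 at CT02 and 4010, 700 and 1447 at CT14. The level was 1.38-fold lower at CT14 in wild type, 5.06-fold lower in the Clock mutant and 3.96-fold lower in the Cry-deficient pair, and the wild-type CT14 value lay above the Clock mutant CT02 value. The mean log2 difference was -1.60 ± 1.0 (SD over 3 genotypes). All 4 genes were above the floor on all 6 arrays and were represented by 1 probe set each, and the wild-type CT02 value of Onecut1 and the Clock mutant CT14 value of Bcl6 were the closest to it.

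**Figure D1:**
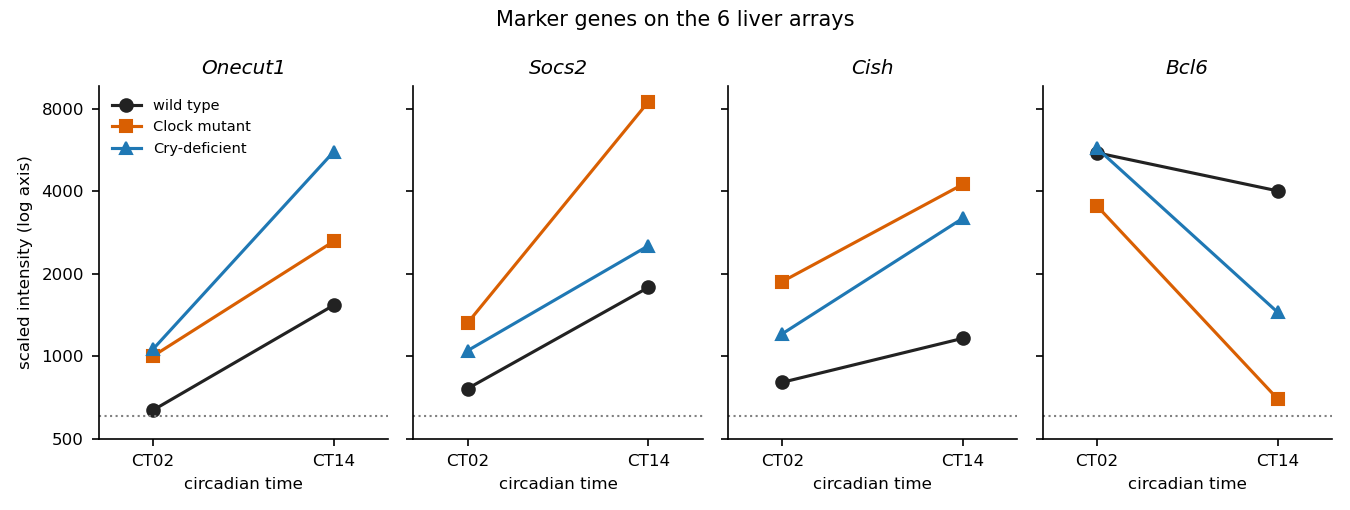
Scaled intensity (log axis) of Onecut1, Socs2, Cish and Bcl6 at CT02 and CT14, 1 point per array, lines joining the arrays of a genotype and a dotted line at the floor of 606 scaled units. The lines of Onecut1, Socs2 and Cish slope up and those of Bcl6 slope down in each genotype, and the wild-type slope is the smallest of the 3 for each gene.

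None of these differences passed a test that took the spread between the genotypes as its error. A limma fit of genotype and time over the 5598 probe sets, with 2 residual degrees of freedom, called 0 of them at an adjusted p under 0.05 (0% of those tested). The lowest Benjamini-Hochberg adjusted p of that fit was 0.872. At an unadjusted p under 0.05 there were 285 probe sets, 5.09% of those tested, of which 168 were higher and 117 lower at CT14. That is about the share such a threshold passes where no gene differs. By that ranking Onecut1 was at place 4, Socs2 at 9, Cish at 19 and Bcl6 at 27. The 4 genes were singled out with these differences known, so their places are a description and no test. With trend and robust settings limma called 0 as well, with 309 at an unadjusted p under 0.05. The genotypes are not replicates of one another, so a gene that responds in each but to different degrees is counted by this fit as variable, and 6 arrays give each value little precision.

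Scaling set the median difference of each pair to 0, so the balance of higher and lower probe sets reflects that centring. Over the kept probe sets, 757 (13.5%) were higher at CT14 in all 3 genotypes and 734 (13.1%) were lower, 1491 or 26.6% in all. On the values as deposited 1864 (33.1%) were higher and 138 (2.45%) lower. All 3 CT14 arrays stood above all 3 CT02 arrays for 212 probe sets (3.79%) and below them for 264 (4.72%). At least 1.5-fold in each genotype, 16 probe sets were higher (0.286%) and 7 were lower (0.125%). Another 70 were 1.5-fold apart in each genotype with mixed directions, spread over 6 patterns of 6 to 19 probe sets each, so that the count of 16 lies within the range of the mixed patterns.

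**Figure D2:**
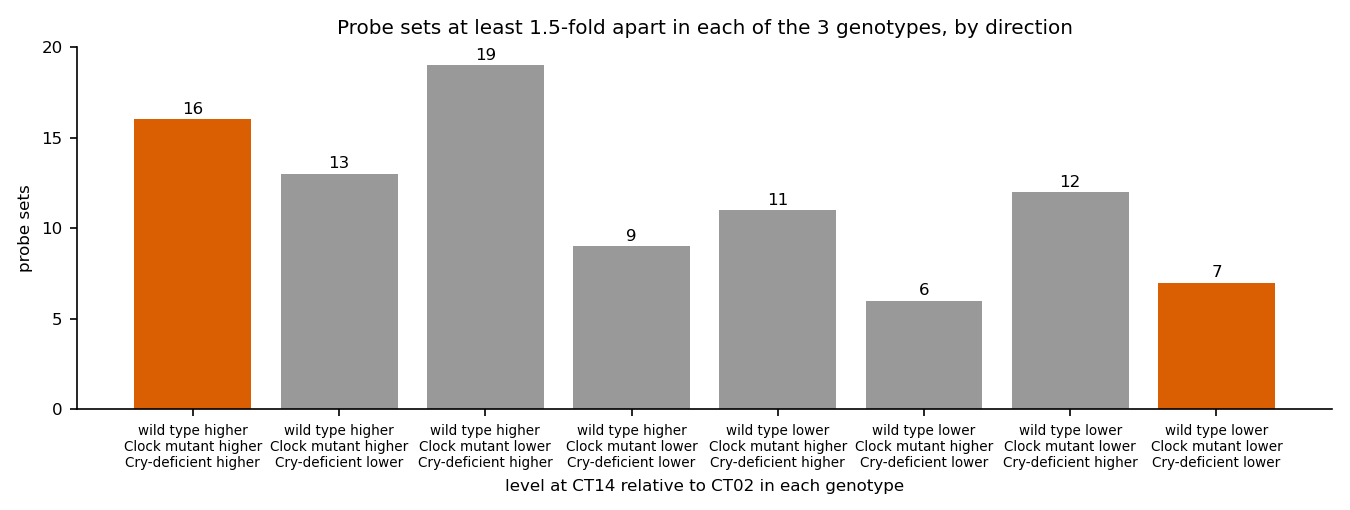
Number of probe sets at least 1.5-fold apart between CT14 and CT02 in each of the 3 genotypes, by direction in each genotype. The bars in orange are the shared directions (16 higher, 7 lower) and the grey bars are the 6 mixed patterns, from 6 to 19 probe sets.

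Single genotypes showed many more differences of that size than the 3 shared. In wild type 452 probe sets were 1.5-fold higher at CT14 and 405 lower, against 750 and 565 for the Clock mutant and 592 and 363 for the Cry-deficient pair. Wild type and Clock mutant had 80 of these higher in both, 61 lower in both and 119 in opposite directions. Wild type and Cry-deficient mice had 93, 43 and 109, and the mutants had 117, 68 and 151.

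The 16 higher probe sets rested in part on dim CT02 signals. For 12 of them a CT02 array was at the floor, so that its fold is a lower bound, and for 2 all 3 CT02 arrays were. Only 4 of the 16 were above the floor on all 6 arrays, against 5 of the 7 lower ones. Of the 16, 9 were the brightest probe set of their gene and 7 were a dimmer one, and of the 7 lower ones 5 were the brightest. Over those 9 dimmer probe sets, the gene's brightest probe set had the same direction in all 3 genotypes for 3 (Mknk2, Rxra and Nsmf), the opposite direction in all 3 for 1 (Hacd3) and mixed directions for 5, all named after their values were seen. The level of a gene is therefore given below by its brightest probe set. At the edge of the threshold, the smallest of the 3 log2 differences was 0.59 for Gnl3 and 0.60 for Nsmf just inside, and 0.56 for Akt2 just outside. On the lower side it was -0.59 for Myh9 and -0.62 for Ttc1 inside, and -0.58 for Wdhd1 and -0.57 for Purb outside.

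The 15 genes with the largest shared difference toward CT14 began with Onecut1 and Socs2 and included Cish at the twelfth place. Hnf4a, which encodes a nuclear receptor that governs much of the hepatocyte programme, was among them. It read 4042, 4086 and 871 at CT02 and 6563, 5827 and 4154 at CT14. The times did not overlap, and the fold was 1.62, 1.43 and 4.77, the last with the lowest CT02 value of the 3. Atf4, a transcription factor of the integrated stress response, had the most even difference. It read 6218, 6409 and 6954 at CT02 and 9671, 9207 and 9852 at CT14, that is 1.56-fold, 1.44-fold and 1.42-fold, with a mean log2 difference of 0.55 ± 0.07 (SD over 3 genotypes).

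Genes of metabolism and growth signalling followed. Akt2, the main AKT kinase of insulin signalling in liver, read 2778, 276 and 1695 at CT02 and 4084, 2531 and 3465 at CT14, so that its fold was 1.47 in wild type, at least 4.17 in the Clock mutant and 2.04 in the Cry-deficient pair. Acsl4, an acyl-CoA synthetase that prefers arachidonic acid, was 2.59-fold, 1.74-fold and 1.46-fold higher, and its dimmer second probe set was also higher in each genotype, by at least 1.3-fold, 1.05-fold and 1.62-fold. Ccnd3, which encodes cyclin D3, was 1.55-fold higher in wild type and at least 2.41-fold and 2.71-fold in the mutants, whose CT02 arrays were at the floor. Gnl3, a nucleolar GTPase of growing cells, was at least 2.16-fold, 1.55-fold and at least 1.5-fold higher.

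Saa4, the constitutive member of the serum amyloid A family, read 2937, 3260 and 1657 at CT02 and 5710, 5022 and 2768 at CT14, or 1.94-fold, 1.54-fold and 1.67-fold higher, with the Cry-deficient CT14 value below 2 of the CT02 values. Scpep1, a serine carboxypeptidase, was 1.55-fold, at least 2.28-fold and 2.20-fold higher. Arl2, a small GTPase of tubulin folding, was 1.41-fold, at least 2.55-fold and 2.52-fold higher.

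The other 3 genes of the 15 are known mainly from cells other than hepatocytes. Pvalb, the calcium buffer parvalbumin of muscle and neurons, read 1516, 1957 and -55 at CT02 and 4454, 4173 and 2244 at CT14, while its second probe set was below the floor on every array. Tacr1, the substance P receptor, was at the floor on all 3 CT02 arrays and read 1458, 1387 and 1159 at CT14, at least 2.40-fold, 2.29-fold and 1.91-fold higher. Cd4, the coreceptor of helper T cells, read 1931, 1668 and 189 at CT02 and 3115, 2932 and 2660 at CT14. Of 7 T and NK cell markers on the array Cd4 alone was kept by the filter on dim signals, and Cd3e, Cd3d, Cd3g and Cd8a were below the floor on all 6 arrays. In a whole tissue a change in the number of a cell type and one in its RNA content cannot be told apart.

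**Figure D3:**
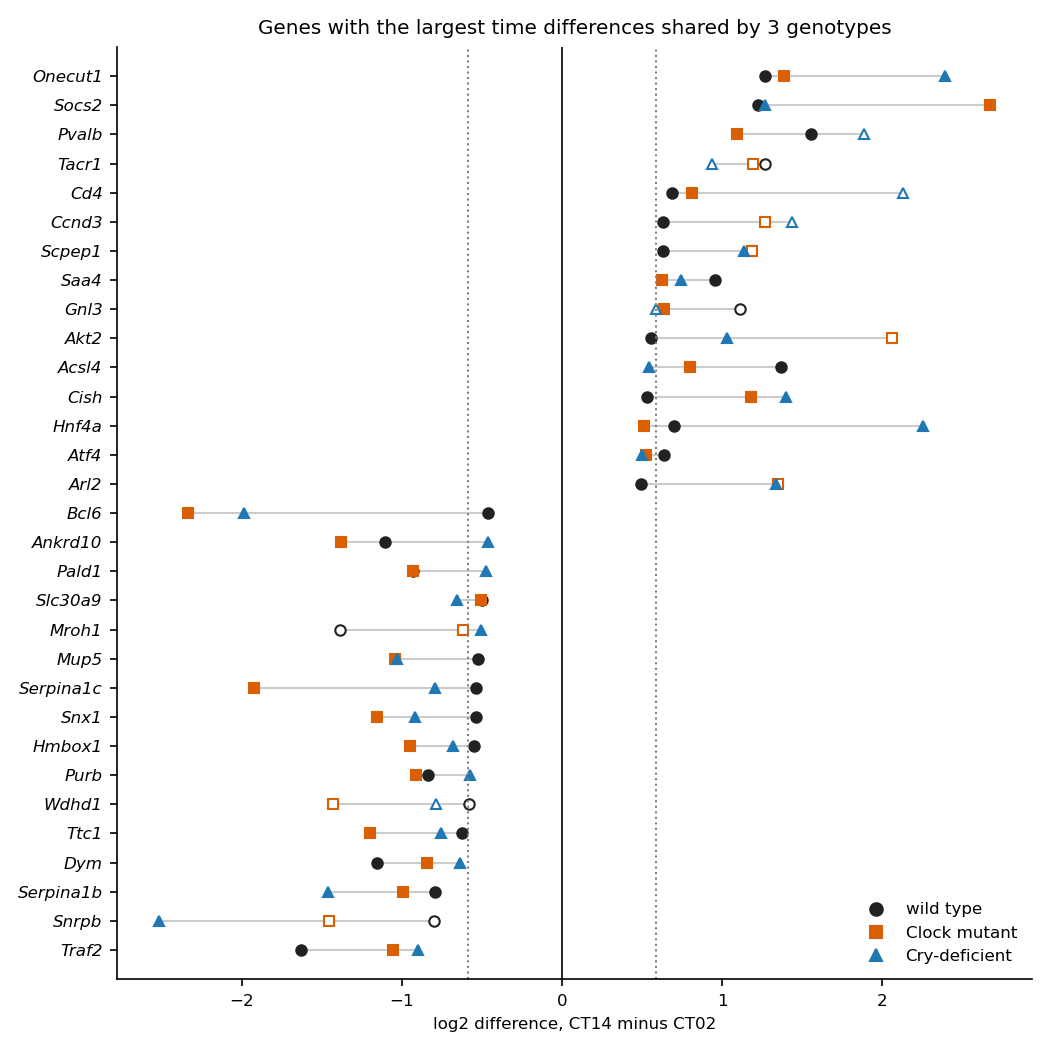
Log2 difference between CT14 and CT02 in wild type, Clock mutant and Cry-deficient liver for the 15 genes with the largest shared difference in each direction and Bcl6, with open symbols where a value at the floor makes the difference a lower bound and dotted lines at 1.5-fold. Onecut1 and Socs2 have the largest smallest difference on the higher side, Traf2 has it on the lower side, and Bcl6 lies within 1.5-fold in wild type only.

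On the lower side the 15 genes were led by Traf2, an adaptor of tumour necrosis factor receptor signalling. It read 4107, 5138 and 4774 at CT02 and 1324, 2474 and 2557 at CT14, so the times did not overlap, and was 3.10-fold, 2.08-fold and 1.87-fold lower at CT14. Its mean log2 difference was -1.20 ± 0.39 (SD over 3 genotypes). Snrpb, a core protein of the spliceosome, read 1057, 1660 and 4348 at CT02 and 63, 359 and 759 at CT14, at least 1.74-fold, at least 2.74-fold and 5.73-fold lower, but its second probe set was at or near the floor throughout.

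Of the 15, Serpina1b, Serpina1c and Mup5 encode secreted proteins of hepatocytes, as does Saa4 on the higher side. Serpina1b and Serpina1c, which encode forms of alpha-1-antitrypsin, were 1.74-fold, 1.99-fold and 2.76-fold lower and 1.45-fold, 3.80-fold and 1.73-fold lower, and a second probe set of Serpina1c was lower by 1.18-fold, 6.52-fold and 2.10-fold. Mup5, of the major urinary proteins, read 7026, 8170 and 9044 at CT02 and 4885, 3969 and 4418 at CT14, which is 1.44-fold, 2.06-fold and 2.05-fold lower. These genes belong to families of near-identical copies whose transcripts such probes can share, so the assignment to a single member is uncertain. They are also bright, and the shift of bright probe sets in the mutants, near 0 in wild type, stands beside them.

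The other genes were mostly of modest signal. Hmbox1, a homeobox protein of telomeres, was 1.46-fold, 1.93-fold and 1.60-fold lower. Snx1, a sorting nexin of the endosome, was 1.45-fold, 2.23-fold and 1.89-fold lower, and Slc30a9, of a zinc transporter family, 1.41-fold, 1.42-fold and 1.58-fold. Purb, a nucleic-acid-binding repressor, read 1314, 1463 and 1193 at CT02 and 737, 777 and 801 at CT14. For these genes the 3 CT14 values lay below the 3 CT02 values.

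Wdhd1, a replication protein, was at the floor on all 3 CT14 arrays and at least 1.5-fold, 2.69-fold and 1.73-fold lower. Dym, a protein of the Golgi, read 1696, 1209 and 950 at CT02 and 760, 673 and 611 at CT14. Ttc1 (758, 609 and 782 at CT14) and Mroh1 (69, 557 and 879) came close to the floor or below it too, and their second probe sets were under it on most arrays. Ankrd10 was 2.15-fold, 2.61-fold and 1.38-fold lower, and Pald1, the paladin gene, 1.91-fold, 1.90-fold and 1.39-fold.

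Mixed directions were the most common among genes of growth hormone signalling, as they were among all genes kept. Over all 4844 genes kept, 13% were higher in all 3 genotypes, 13.4% were lower and 3564 genes were mixed. Of 14 kept genes of the signalling pathway, 4 were higher in all 3 genotypes, 1 was lower and 9 were mixed. Their median log2 difference was 0.02 against 0.01 over all genes kept. Socs2 and Cish, singled out with these results known, are among the 4 higher ones, so that count is not free of the choice. Besides Socs2 and Cish the higher ones were Pik3r1, the regulatory subunit of phosphoinositide 3-kinase (log2 differences 0.80, 0.60 and 0.31), and Grb10, an adaptor (0.04, 0.02 and 0.16), and the lower one was Stat3 (-0.27, -0.02 and -0.48). The receptor gene Ghr was bright and nearly level, at 15923, 20620 and 15403 at CT02 and 16548, 18513 and 13815 at CT14. Stat5a had log2 differences of -0.33, 0.41 and 0.90, and Stat5b of -0.09, -1.04 and 0.00, the last with both arrays at the floor.

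Among 16 kept genes known to be induced by growth hormone or STAT5 in liver, 5 were higher in all 3 genotypes and 4 lower, with a median of 0.04. The shares over all genes kept were 13% higher and 13.4% lower. Socs2, Cish and Onecut1, singled out with these results known, are among the 5 higher ones, so that count is not free of the choice. After lowess correction the counts of the list were 6 and 3, and on the values as deposited 8 and 2. The median turned to -0.06 without wild type, -0.03 without the Cry-deficient pair and -0.02 with the filter at the 75th percentile. The higher ones were Socs2, Cish, Onecut1, Pik3r1 and the epidermal growth factor receptor gene Egfr, which read 10235, 8055 and 7782 at CT02 and 12092, 11700 and 13227 at CT14. The lower ones were Serpina3n, Cyp2d9, Gstp1 and Ces3a. Igf1, the main endocrine product of the pathway, had log2 differences of 0.03, -0.68 and -0.34. Of 6 kept genes repressed by STAT5 or bound by BCL6, 0 were higher in all 3. Bcl6 itself, also singled out with these results known, was the 1 gene lower. The median of the 6 genes' mean differences was -0.70, with medians of -0.23, -0.58 and 0.00 by genotype. Igfbp1, for example, was at least 15.8-fold lower at CT14 in wild type and 6.36-fold higher in the Cry-deficient pair.

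Growth hormone pulses are known to set sex-dependent gene expression in liver. Of 10 kept genes with a known male excess in liver, 6 were lower at CT14 in all 3 genotypes and 0 higher, with a median of -0.25. They were Mup3, Cyp2d9, Ces3a, Serpina1e, Gstp1 and Mug2, and Serpina1e had the widest spread (-0.35, -2.42 and -0.53). Of 7 kept genes higher in female liver, 0 had a shared direction. Over all genes kept, 13% were higher in all 3 genotypes and 13.4% lower, and over the brightest 10% of probe sets 3.75% and 35.9%. The male list is made of bright genes, and its median was -0.15 after lowess correction. There 2 of its genes were higher and 5 lower in all 3 genotypes, as with quantile normalization. On the values as deposited it was -0.01, with 2 higher and 3 lower.

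Liver transcription factors were more often higher than lower. Of 22 kept, 6 stood higher in all 3 genotypes and 0 lower, and the median of the mean differences was 0.25. With quantile normalization or lowess correction 6 were higher and 1 lower. The median was 0.11 without the Clock mutant pair, where 8 were higher and 5 lower in both other genotypes, and 0.07 with the filter at the 75th percentile. Beside Onecut1 and Hnf4a these were Foxa2, a pioneer factor of hepatocytes (log2 differences at least 0.30, at least 1.82 and 0.36), Rxra, the partner of many nuclear receptors (0.59, 0.10 and 0.84), Nr1i3, the receptor CAR (0.07, 0.50 and 0.13), and Xbp1, a factor of the secretory pathway (0.27, 0.38 and 0.53). For 5 of the 6 genes, which were taken because they were higher in each genotype, the CT14 arrays stood above the CT02 arrays. Over all kept probe sets, with no such choice, 3.79% stood so. A second, dimmer probe set of Rxra was among the 16 at least 1.5-fold higher. Over all genes kept, 13% were higher in all 3 genotypes, the share beside which this count stands. Onecut1, among the 6, was singled out with these results known.

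For genes of protein folding and of growth the counts stand beside the 13% of all genes kept that were higher in all 3 genotypes and the 13.4% that were lower. Of 18 kept genes of the unfolded protein response, Atf4, Xbp1 and the disulfide isomerase gene Pdia6 (log2 differences 0.48, 0.25 and 1.0) were higher in all 3 genotypes and 0 were lower, and 10 were higher on the values as deposited. The list's median was 0.61 in wild type, -0.20 in the Clock mutant and 0.14 in the Cry-deficient pair. Of 13 kept genes of polyamine and ribosome biogenesis, 5 were higher in all 3 and 0 lower: Gnl3, Nop58, Rrn3, Ncl, the nucleolin gene, and Azin1, the antizyme inhibitor. In the Cry-deficient pair the difference was 0.01 on the log2 scale for Azin1, and Nop58 was at the floor at CT02 and read 606 at CT14. Of 6 kept cell cycle genes Ccnd1, Gadd45g and Pcna were higher and Btg1 lower. Gadd45g, a stress-induced growth arrest gene, read 685, 953 and 708 at CT02 and 884, 2238 and 2754 at CT14.

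Genes of bile acid synthesis and transport differed in direction, and their counts moved with the scaling. Cyp7a1, the first enzyme of the classical route, was the single gene of 10 kept that stood higher in all 3 genotypes. It read 1282, 26 and 2185 at CT02 and 2692, 3461 and 2901 at CT14, with all CT14 values above all CT02 values. Cyp8b1, which directs synthesis toward cholic acid, was lower, at 10262, 11972 and 11111 at CT02 and 5584, 8173 and 9655 at CT14. Hsd3b7, Baat and Slc10a1, which act in the synthesis, conjugation and uptake of bile acids, were lower too, with log2 differences between -0.03 and -0.54. For each of these 4 genes, which were taken because they were lower in each genotype, the CT14 arrays stood below the CT02 arrays. Over all kept probe sets, with no such choice, 4.72% stood so, and 3.79% stood above. The 264 probe sets that stood below all lie among the 734 that were lower in all 3 genotypes. Over all genes kept, 13% were higher in all 3 genotypes and 13.4% lower. Over the brightest 10% of probe sets the shares were 3.75% higher and 35.9% lower. After lowess correction 2 of the 10 genes were higher and 3 lower in all 3 genotypes, and on the values as deposited 3 and 0.

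Lists of abundant liver products leaned to the lower side. Of 22 kept acute phase genes 11 were lower in all 3 genotypes and Saa4 alone was higher, with a median of -0.23. Haptoglobin (Hp) had log2 differences of -0.35, -1.50 and -0.63, Serpina3n of -0.32, -0.38 and -0.73 and Apcs, the serum amyloid P gene, of -0.43, -0.35 and -0.23. Of 15 kept genes of the urea cycle and amino acid catabolism 8 were lower and 0 higher, with a median of -0.26, among them Cps1, the first urea cycle enzyme (-0.09, -0.73 and -0.41), and Ahcy, a hydrolase of the methionine cycle (-0.28, -0.48 and -0.22). In wild type alone these medians were -0.02 and -0.06. Over the brightest 10% of all probe sets, 35.9% were lower in all 3 genotypes and 3.75% higher, and after lowess correction 7 of the 22 and 5 of the 15 were lower in all 3, with medians of -0.09 and -0.13. On the values as deposited the medians were 0.01 and -0.02, and 1 gene of each list was lower in all 3.

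**Figure D4:**
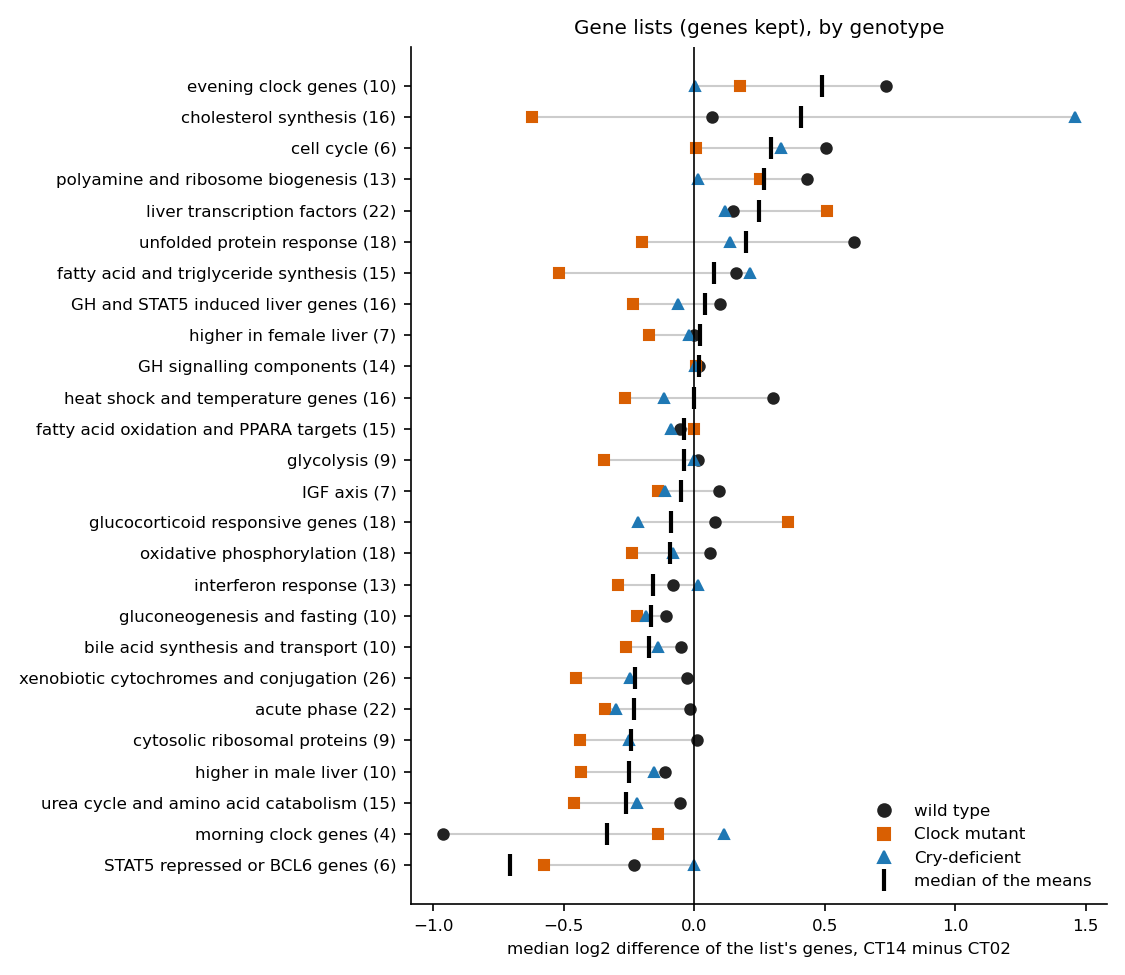
Median log2 difference between CT14 and CT02 of the kept genes of 26 pathway lists in wild type, Clock mutant and Cry-deficient liver, with a black bar at the median of the genes' mean differences and the number of kept genes in parentheses. The liver transcription factors lie to the right of zero in each genotype (0.15, 0.51 and 0.12), whereas cholesterol synthesis spans -0.62 to 1.46. Polyamine and ribosome biogenesis (0.43, 0.25 and 0.01), cell cycle, evening clock genes and growth hormone signalling also lie to the right in each genotype, some of them barely.

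Cholesterol synthesis had time differences that lay apart between the genotypes. Of 16 kept cholesterol synthesis genes 0 had the same direction in all 3 genotypes, with list medians of 0.07 in wild type, -0.62 in the Clock mutant and 1.46 in the Cry-deficient pair. The counts of the other lists stand beside the 13% of all genes kept that were higher in all 3 genotypes and the 13.4% that were lower. Among 18 kept glucocorticoid-responsive genes 0 were higher in all 3 and 3 lower, and among 16 kept heat shock genes 1 was higher and 0 lower. Of 6 kept endothelial markers 4 were lower in all 3 genotypes (Kdr, Cdh5, Tie1 and Eng), and of 13 kept macrophage markers 2 were lower (Cd68 and Csf1r). Summed levels were taken over all markers on the array, kept or not, with negative values counted as 0. The 10 endothelial ones gave 14718 to 18204 at CT02 and 10062 to 15503 at CT14. The 14 macrophage ones gave 34925 to 64538 and 36745 to 48373. The part of these cell types in the shared differences was not tested.

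Of the 12 clock genes examined, 11 were kept, and of these Cry2 and Nr1d2 were higher in all 3 genotypes and Arntl was lower. Over all genes kept, 13% were higher in all 3 genotypes and 13.4% lower, so these counts do not set the clock genes apart. Arntl read 2102, 2060 and 1459 at CT02 and 865, 1348 and 1097 at CT14, so the times did not overlap, and its log2 differences of -1.28, -0.61 and -0.41 were largest in wild type. Cry2 read 1215, 1372 and 1185 at CT02 and 2256, 1886 and 1344 at CT14, a fold of 1.86, 1.38 and 1.13. Nr1d2, the Rev-erb beta gene, was 1.49-fold, at least 1.69-fold and 1.22-fold higher. Cry1 read 1833, 1963 and 3845 at CT02 and 2723, 366 and 4718 at CT14, so that its values on the Cry-deficient arrays were the highest of the 6. These values come from its brightest probe set only, and its other probe sets were below the floor on every array. The labels do not say whether the Cry1 and Cry2 probes fall inside what was deleted, and these probes do not check the genotype labels.

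The clock genes with the largest differences in wild type had smaller or opposite ones in the mutants. Per2, a repressor of the clock, read 251, 651 and 3071 at CT02 and 4058, 778 and 2665 at CT14, with log2 differences of 2.74 (a lower bound), 0.26 and -0.20. Tef had 1.32, 0.27 and -0.18, and Bhlhe40 had 2.32, 0.53 and -0.94. Clock, in turn, had -0.65, 0.34 and 1.39, and Cry1 had 0.57, a fall of at least 1.70 to a value below the floor, and 0.30. Per3 and Nr1d1 had differences between -0.45 and 0.19. Dbp was higher by at least 0.31 in wild type and by 0.30 in the Cry-deficient pair, and was under the floor at both times in the Clock mutant. With the floor at the 25th percentile its mean log2 difference was 1.67, against 0.20. Per1 was below the floor on 4 of the 6 arrays. The 10 kept evening clock genes had medians of 0.73, 0.17 and 0.00 by genotype, where Onecut1, Socs2 and Cish each had its smallest difference in wild type.

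**Figure D5:**
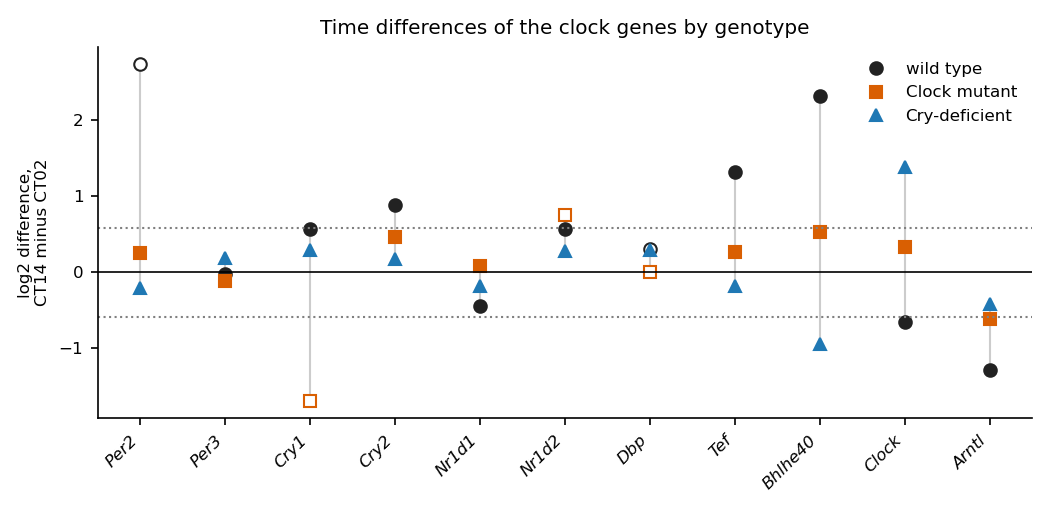
Log2 difference between CT14 and CT02 of 11 clock genes in wild type, Clock mutant and Cry-deficient liver, with open symbols where a value was at the floor and dotted lines at 1.5-fold. Arntl lies below zero and Cry2 and Nr1d2 lie above it in each genotype, and Bhlhe40 spans 2.32 to -0.94.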

How the data were processed

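One intensity per probe set and array was deposited for 6 arrays, whole numbers above and below 0, read from the values. The software and any background step: not given in the sources used here. Arrays were grouped by their titles. Of 12488 probe sets, 10855 had 1 gene symbol in the platform annotation, 396 had several and 1237 none, and 10839 matched RefSeq by gene number. Those with several or none, and 66 controls, were not used.

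Each array was divided by its median ratio to the geometric mean of the 6, over 6065 bright probe sets positive on all arrays. The median of all scaled values (606 units) served as a floor, to which lower values were raised before log2, so a fold against the floor is a lower bound, written "at least". Probe sets with a mean at or above the floor were kept. A gene is given by its brightest probe set.

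The time effect was fitted with limma 3.58.1 (R 4.3.3), genotype as a block, Benjamini-Hochberg over 5598 probe sets, after a test on simulated data. Genes named are the 4 markers, the 15 largest shared differences in each direction by the smallest of the 3, the clock genes and up to 4 leading members of a list, with further members where a count is itemised. The other lists were compared by counts and medians only. The members and lists were chosen with earlier results of these data known. Labels do not say that arrays come from separate mice, and p-values measure only the spread between these arrays. Alternatives were the deposited values, quantile and lowess scaling, other floors and filters, probe sets with no letter in the name, 1 probe set per gene, no genotype block, trend and robust settings, a looser and a stricter threshold and each genotype left out. The use of only probe sets above the floor on all 6 arrays was added after seeing the data.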

Additional observations from a re-analysis of the deposited data

Results flagged for a closer look

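The time difference of Bhlhe40, which encodes a transcriptional repressor, was higher at CT14 in wild type (log2 difference 2.32) and lower in the Cry-deficient pair (-0.94), 3.26 apart. That of Clock was lower in wild type (-0.65) and higher in the Cry-deficient pair (1.39), 2.04 apart. Both were marked because the single pairs of 2 genotypes were at least 1.5-fold apart in opposite directions, and the difference between the genotypes was not tested, since each group held 1 array.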

How the results depend on the processing

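The limma fit called 0 probe sets under each of the 15 alternatives, with a lowest adjusted p between 0.0590 (without the Cry-deficient pair) and 0.9996 and 133 to 457 probe sets at an unadjusted p under 0.05. Without the genotype block it called 0, with 157 at an unadjusted p under 0.05. The counts at least 1.5-fold apart in all 3 genotypes, 16 higher and 7 lower, were 55 and 2 on the deposited values, whose median difference over all probe sets was 0.24 and where 96.5% of the shared ones were higher, against 69.6% after scaling. With the floor at the 25th percentile they were 29 and 15, with the filter at the 75th percentile 4 and 2, and at 2-fold 4 and 0. On probe sets with no letter in the name the count was 3 lower (81.3% of the shared ones higher), and with the brightest probe set of each gene 9 higher. On those above the floor on all 6 arrays it was 4 higher and 5 lower. Leaving out a genotype, which asks for agreement of the other 2 only, gave 80 to 117 higher and 43 to 68 lower. The 31 genes of the markers and ranked sets kept their direction in every genotype in all 399 values recomputed. They were chosen for a shared direction on these same arrays. Filters, choices of probe set, fit settings and left-out pairs reuse the same differences, so their direction could not change there. Only the deposited values and the quantile and lowess scalings could change it, and the tally is no measure of reliability.

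Some mean differences and list medians reversed in sign. On the deposited values Nr1d1 was at 0.062, the acute phase median at 0.013 and the bile acid median at 0.068. Per3 was at -0.014 after quantile normalization and -0.018 after lowess correction. Leaving out each genotype gave -0.072 to 0.082 for Per3 (reversed without the Cry-deficient pair), -0.16 to 0.86 for Clock (the same pair), -0.20 to 1.43 for Bhlhe40 (wild type), -0.70 to 0.43 for Cry1 (Clock mutant), -0.13 to 0.47 for the unfolded protein response median (wild type) and -0.20 to 0.86 for that of cholesterol synthesis (Cry-deficient). The medians of growth hormone signalling (0.018) and of genes induced by it (0.041) are near 0 and also crossed it, with -0.017 to 0.0025 and -0.058 to 0.039 on leaving out each genotype and -0.023 for the latter with the 75th percentile filter. Of 121 list medians, 99 moved by no more than the spread between genotypes. The lists already use the brightest probe set of each gene, so that setting could not move them. Floors and filters reuse many of the same values, and this tally too is no measure of reliability. The causes of the reversals were not tested. Signal over background limits the dim genes.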
